A study of Homo sapiens with 8 samples.

Results

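VGF and METRN are 2 of the 4616 genes whose translational efficiency (TE, ribosome footprints relative to mRNA) was compared between shTINCR and shSCR cells in the authors' deposited table. They were picked by symbol, with their values in that table already known, so everything the table says of their own change is given as a description. The cells were WM902B, a primary melanoma line that carries the BRAFV600E mutation, at passage 18. One set of cells carried shTINCR, which targets the long non-coding RNA TINCR, first described in differentiating epidermis, and the other carried the scrambled control shSCR. The number of hairpin sequences or clones behind each label is not stated there. All cells of both groups received cycloheximide at 100 µg/ml for 5 min, which arrests elongating ribosomes. Each hairpin had 2 libraries of footprints and 2 of RNA from biological replicates, 8 in all, and the RNA samples are titled as total RNA but labelled as poly(A) RNA. The effect of the hairpin on its target could not be checked, because TINCR has 0 rows in the table.

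VGF encodes a secreted protein related to the granins, the acidic cargo proteins of dense-core vesicles. It was found as a gene that nerve growth factor induces, and prohormone convertases cut it at basic residues into several bioactive peptides. METRN encodes meteorin, a small secreted protein that promotes glial differentiation and axon growth, as known from mouse. Melanocytes share the neural crest origin of peripheral neurons and glia. Translational efficiency is the number of ribosome footprints on an mRNA relative to the amount of that mRNA, so it can change through either term.

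The sequence before each gene's annotated start is shown because it fixes which mRNA start is meant and holds a well-studied element of VGF, the cyclic AMP response element bound by CREB. Both are RefSeq sequences of GRCh38.p14, 250 bases long and written 5′ to 3′ up to the base before the start. VGF's lies at chr7:101165570-101165819 on the minus strand and METRN's at chr16:714868-715117 on the plus strand. Capitals mark matches on either strand to TGACGTCA (the CREB element), CCAAT (the CCAAT box), GGGCGG (the GC box), CACGTG (the E-box) and TATAA (part of the TATA box), and a stretch of capitals can hold overlapping or abutting matches.
VGF: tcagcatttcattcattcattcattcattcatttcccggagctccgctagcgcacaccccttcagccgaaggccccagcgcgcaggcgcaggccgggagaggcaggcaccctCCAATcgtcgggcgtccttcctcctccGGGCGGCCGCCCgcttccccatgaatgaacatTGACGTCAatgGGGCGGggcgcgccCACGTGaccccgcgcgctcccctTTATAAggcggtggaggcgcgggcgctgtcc
METRN: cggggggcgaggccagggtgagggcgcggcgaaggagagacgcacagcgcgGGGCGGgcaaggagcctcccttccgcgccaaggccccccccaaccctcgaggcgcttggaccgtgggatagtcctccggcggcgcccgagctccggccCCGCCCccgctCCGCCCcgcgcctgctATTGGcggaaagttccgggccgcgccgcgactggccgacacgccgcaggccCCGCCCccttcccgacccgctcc
VGF has 1 match to TGACGTCA, with its first base at -79, and 1 to CACGTG at -54. It also has overlapping matches to TATAA, 1 on each strand, at -31 and -30. METRN has 0 matches to any of these 3 motifs in its window. Over the 3735 genes of the table with a promoter entry, the share with a match in the same window was 3.45% for TGACGTCA, 10.1% for CACGTG and 10.6% for TATAA. Both genes have 1 CCAAT match (36.9% of promoters), VGF has 3 GC box matches and METRN has 4 (70.1% of promoters have at least 1). A match is a run of letters and not evidence that a factor binds there, and the table holds no measurement of transcription.

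TE of both genes was higher in shTINCR than in shSCR cells, on a scale centred on the typical gene of each condition. The deposited values do not split this change between footprints and mRNA. VGF had a log2 TE of 2.06 in shTINCR cells and 1.34 in shSCR cells in the authors' deposited table. On the linear scale its TE was 4.18 in shTINCR cells, against 2.53 in shSCR cells. The log2 change was 0.72, or 1.65-fold (adjusted p = 4.47e-15, per the authors' deposited table). METRN had a log2 TE of -0.83 in shTINCR cells and -1.81 in shSCR cells in the authors' deposited table, which is a linear TE of 0.561 in shTINCR cells, against 0.285 in shSCR cells. Its log2 change was 0.98, or 1.97-fold (adjusted p = 2.93e-08, per the authors' deposited table). At the authors' adjusted p below 0.05, 380 of the 4616 genes were higher (8.23%) and 377 lower (8.17%) in shTINCR cells, 16.4% in all. Both genes are among those that were higher, which is part of why they were picked. Both also passed at an adjusted p below 0.01, which 3.62% of genes passed as higher and 4.2% as lower, and under Bonferroni adjustment, with 0.975% higher and 1.62% lower.

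**Figure D1:**
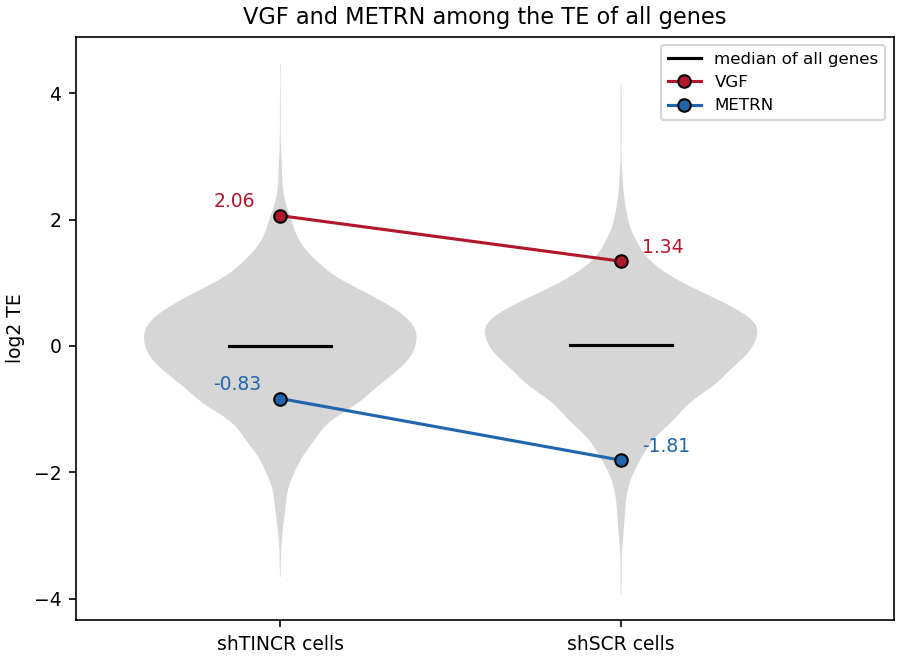
Log2 TE of VGF and METRN in shTINCR cells (left) and shSCR cells (right), joined by lines, over the distribution of log2 TE of all 4616 genes (grey shapes, with the median as a black bar). VGF stands at 2.06 and 1.34, near the top of both distributions, and METRN at -0.83 and -1.81, below the median in both. Each point is the authors' value for a condition, with no replicate spread.

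The table gives 1 value per condition, so neither the spread between the replicates nor the depth of the libraries is known. The error of a change can be read only from its p-value. If the final p-value is taken as that of a two-sided normal statistic, it implies a standard error of 0.0845 for the log2 change of VGF. The matching 95% interval runs from 0.56 to 0.89. For METRN the implied standard error was 0.154 and the interval 0.68 to 1.28. METRN's change was thus the larger but the less precise, and the intervals overlap. The change of METRN exceeded that of VGF by 0.25 on the log2 scale, a difference that was not tested.

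The 2 genes started from opposite ends of the TE range. In shSCR cells 95.4% of all genes had a lower TE than VGF and 3.10% a lower TE than METRN. Because TE here is centred on the typical gene, with a median log2 TE of 0.0019 in shTINCR and 0.0078 in shSCR cells, VGF already stood well above the median and METRN well below it. In shTINCR cells 98.8% of genes stood below VGF and 18.3% below METRN. VGF therefore ranked 55th from the top in shTINCR cells, against 212th in shSCR cells. METRN ranked 844th from the bottom in shTINCR cells, against 144th in shSCR cells. The gap between the genes was 7.44-fold in TE in shTINCR cells and 8.88-fold in shSCR cells. Both TE values of METRN remained below the median, and both of VGF above it.

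**Figure D2:**
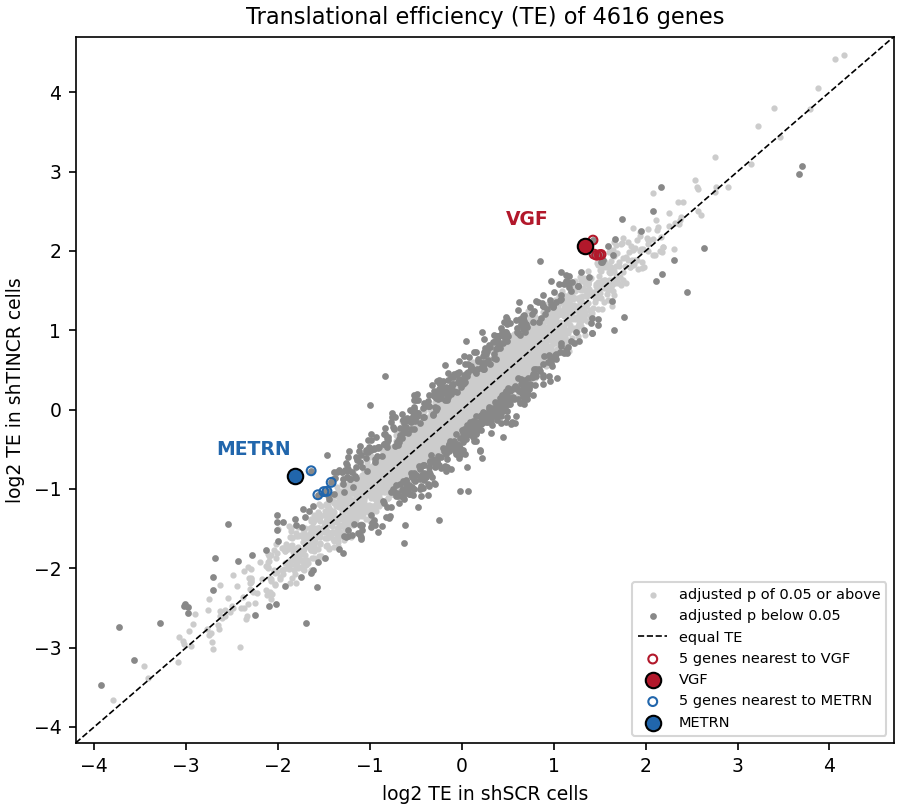
Log2 TE in shTINCR cells (vertical) against log2 TE in shSCR cells (horizontal) for 4616 genes, with a dashed line of equal TE; dark grey points have an adjusted p below 0.05. VGF (red) and METRN (blue) both lie above the line, at opposite ends, and open circles mark the 5 genes nearest to each.

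By the size of its log2 change METRN ranked 6th and VGF 14th of 4616 genes. The 5 genes with a larger rise than METRN and the 13 with a larger rise than VGF all had an adjusted p below 0.05. The gene just above METRN was ATF4, which drives transcription in the integrated stress response, at 0.99. The gene just below was MKNK2, a kinase of the cap-binding protein eIF4E, at 0.90 (adjusted p = 0.000243, per the authors' deposited table). Around VGF the order was closer. MAG, a myelin adhesion protein, stood just above it at 0.73 (adjusted p = 3.43e-10) and the growth factor GDF11 just below at 0.72 (adjusted p = 6.14e-05, per the authors' deposited table). Both differ from VGF by far less than its implied standard error, so their order is not resolved. ATF4 and MKNK2 also differ from METRN by less than its implied standard error of 0.154, so that order is not resolved either. Counting falls as well, METRN had the 11th and VGF the 27th largest change in either direction.

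By p-value the order was reversed. VGF had the 12th smallest p-value of all genes and METRN the 33rd. Of the 11 genes with a smaller p-value than VGF, 10 were lower in shTINCR cells and 1 was higher, the ferritin light chain FTL. VGF was thus second among the genes that were higher. For METRN, 32 genes had a smaller p-value, 27 of them lower and 5 higher in shTINCR cells.

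**Figure D3:**
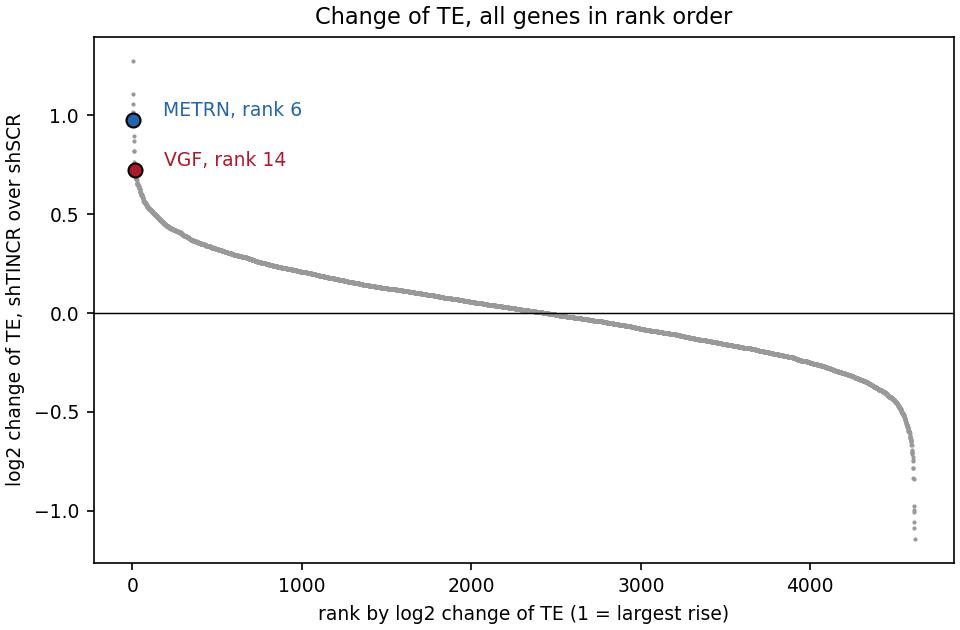
Log2 change of TE (shTINCR over shSCR) of all 4616 genes in rank order, with rank 1 the largest rise. METRN (0.98, rank 6) and VGF (0.72, rank 14) lie on the steep left end of the curve, while the median gene is at 0.02.

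The authors' table holds 2 versions of each estimate, and the final p-value is the larger of the pair. The versions gave VGF the same log2 change of 0.72, with p = 1.16e-17 in the first and p = 1.70e-22 in the second version of the authors' deposited table. For METRN both gave 0.98, with p = 2.19e-15 in the first and p = 2.09e-10 in the second version of the authors' deposited table. The final p-value of VGF came from the first version and that of METRN from the second. Among the 44 genes with a final p-value below 1e-08, the first version had the larger p in 38 and the second in 6. Of these 44 genes, 9 differed more than VGF in the direction of the first kind and 0 more than METRN in that of the second. ATF4, with a final p-value just above that limit, differed more than METRN.

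Most genes that started from a similar TE did not pass the threshold, as was also true over all genes (8.23% higher, 8.17% lower). Within 0.5 of VGF's log2 TE in shSCR cells there were 553 other genes, of which 44 (7.96%) were higher and 42 (7.59%) lower at an adjusted p below 0.05, with a median log2 change of 0.04. The single one with a larger rise than VGF was CRYAB, a small heat shock protein, at 1.02. Of the 211 genes with a TE above VGF's in shSCR cells, 15 were higher, 16 were lower and 0 had a larger log2 change than VGF. Around METRN there were 315 other genes within 0.5, of which 28 (8.89%) were higher and 12 (3.81%) lower, with a median of 0.03. None of these 315 had a larger log2 change than METRN. Both genes were picked with their changes known, so that few genes around them rose more follows in part from the choice. Of the 143 genes with a TE below METRN's in shSCR cells, 21 (14.7%) were higher and 4 were lower, and 2 of them, FTL and ATF4, had a larger rise than METRN. TE in shSCR cells is also a term of the log2 change, so groups made by it, here and below, are not independent of the change.

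The genes most like each member were taken as the 5 nearest in the plane of the 2 log2 TE values, a measure of likeness over 2 conditions only. Nearest to VGF, at a distance of 0.114, was G6PC3, a glucose-6-phosphatase, with a log2 TE of 2.14 in shTINCR and 1.43 in shSCR cells (adjusted p = 0.000606, per the authors' deposited table). It was followed by RTL8C, a gene derived from a retrotransposon, with a log2 change of 0.52, and INTS11, the endonuclease of the Integrator complex, with 0.48. NDUFAF3, an assembly factor of respiratory complex I, had 0.46 and the microtubule protein MAP1S 0.44. Of these 5, MAP1S did not pass (adjusted p = 0.0934, per the authors' deposited table). METRN stood farther from its neighbours. Its nearest gene was the diacylglycerol kinase DGKZ at a distance of 0.181, with a log2 TE of -0.77 in shTINCR and -1.64 in shSCR cells. The next, at 0.343 and beyond, were the mitochondrial reductase MECR (log2 change 0.49), PHLDA1 (0.47), the actin exporter XPO6 (0.44) and UBL4A (0.50), all with an adjusted p below 0.05. As nearness uses both TE values, a high change among these genes follows from how they were chosen.

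Lists of genes that make, store, release or receive such factors were then set beside the pair. These lists were chosen with earlier results of these data known. Over the 6 lists together 44 other genes were measured, of which 6 (13.6%) were higher and 0 lower at an adjusted p below 0.05, against 8.23% higher and 8.17% lower over all genes. On the authors' second version 8 were higher. Their median log2 change was 0.04, against 0.02 over all genes. The calls fell in 2 lists, the secreted factors and their receptors.

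Of 35 secreted neurotrophic and neurite growth factors 10 were measured, METRN among them, while METRN's paralog METRNL has 0 rows. Of the other 9, 3 were higher and 0 lower (8.23% and 8.17% over all genes), with a median log2 change of 0.18 and a range of -0.38 to 0.72. Among these 9, 6 had an unadjusted p below 0.05 and 6 a log2 change above 0. The progranulin gene GRN, named after its value was seen, passed on the authors' second version alone, with a log2 change of 0.30. VEGFA, also named after its value was seen, had the lowest change at -0.38 (adjusted p = 0.161, per the authors' deposited table). MDK, the heparin-binding factor midkine, had a log2 TE of 2.80 in shTINCR and 2.17 in shSCR cells, a change of 0.63 (adjusted p = 0.00546, per the authors' deposited table). GDF15, a stress cytokine of the TGF-β family, had 2.15 in shTINCR and 1.67 in shSCR cells, a change of 0.48 (adjusted p = 3.96e-06, per the authors' deposited table). GDF11, of the same family, had -0.05 in shTINCR and -0.76 in shSCR cells. MDK and GDF15 thus began with a high TE as VGF did. GDF11 began below the median, but well above METRN, which had -1.81 in shSCR cells.

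Among 28 receptors and partners of neurotrophic factors 11 were measured, of which 3 were higher and 0 lower (8.23% and 8.17% over all genes), with a median log2 change of 0.07. SDC3, a heparan sulphate proteoglycan that binds factors of the midkine family, had a log2 TE of -0.38 in shTINCR and -0.99 in shSCR cells, a change of 0.61 (adjusted p = 9.94e-05, per the authors' deposited table). NGFR, the neurotrophin receptor p75, had 0.52 in shTINCR and 0.10 in shSCR cells, a change of 0.42 (adjusted p = 0.0015, per the authors' deposited table). LRP1, an endocytic receptor that also binds midkine, had 0.35 in shTINCR and -0.03 in shSCR cells, a change of 0.38 (adjusted p = 0.00834, per the authors' deposited table).

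In the lists of vesicle cargo, processing, release and CREB regulators no gene other than VGF passed the authors' final adjusted p. At the shares over all genes, 8.23% higher and 8.17% lower, lists this short would hold few calls. Of 12 granins and other vesicle cargo genes 3 were measured, VGF and the nucleobindins NUCB1 and NUCB2, calcium-binding proteins of the secretory pathway. The log2 change was 0.15 for NUCB1 (adjusted p = 0.386) and -0.11 for NUCB2 (adjusted p = 0.649, per the authors' deposited table), and neither had an unadjusted p below 0.05. Of 15 prohormone processing genes 8 were measured and 0 passed, with 2 at an unadjusted p below 0.05 and a median of 0.14. The smallest p-values belonged to ATP6AP1, an accessory subunit of the vesicle proton pump, with 0.35 (adjusted p = 0.0693), and to QPCTL, a glutaminyl cyclase of the Golgi, with 0.41 (adjusted p = 0.121, per the authors' deposited table). ATP6AP1 passed on the authors' second version alone (adjusted p = 0.0225 by Benjamini-Hochberg over all genes). Of 25 genes of regulated secretion 7 were measured and 0 passed, also at an unadjusted p below 0.05, with a median of -0.03. RAB27A, a small GTPase of secretory granules and melanosomes, had -0.17 and its effector SYTL2 -0.10. Of 14 CREB-related and silencer genes 7 were measured and 0 passed, again also unadjusted, with a median of 0.04. The silencing factor REST had -0.23 and the CREB coactivator CREBBP -0.20 in the authors' deposited table.

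**Figure D4:**
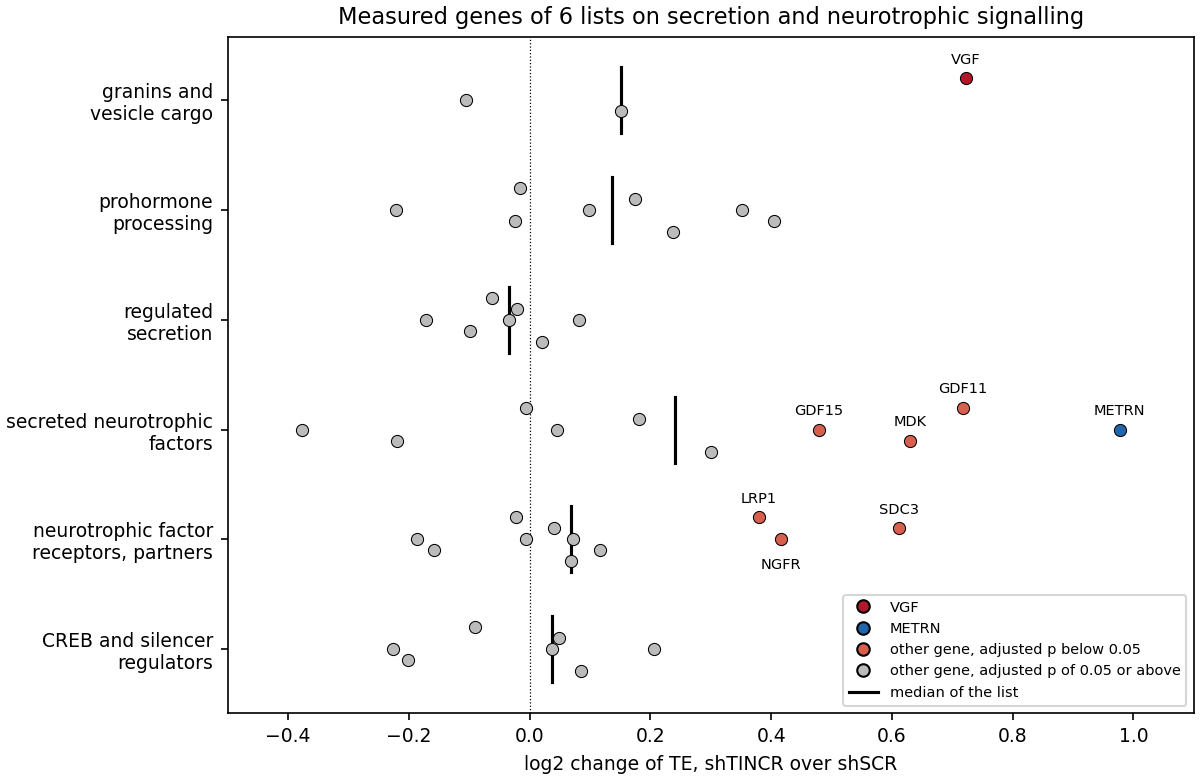
Log2 change of TE (shTINCR over shSCR) of each measured gene of 6 lists, 1 row per list, with vertical position within a row only separating points; black bars are the medians of all measured genes of a list, VGF and METRN included. METRN (blue, 0.98) and VGF (red, 0.72) lie farthest right in their lists, and the other genes with an adjusted p below 0.05 are GDF11, MDK, GDF15, SDC3, NGFR and LRP1.

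Markers of cell types were looked up in the same table, which records only that a gene has a TE value and not how abundant it is. Over all genes 8.23% were higher and 8.17% lower, so few calls would fall among so few markers. Of 10 melanocytic markers 9 have a row, among them SOX10 and S100A1, and 0 passed, with 1 at an unadjusted p below 0.05 and 1, SOX10, past the threshold in the authors' second version. Of 14 neuronal and neuroendocrine markers 2 have a row, TUBB3 and NCAM1, with log2 changes of -0.17 and 0.08, neither of them at an unadjusted p below 0.05. Of 8 glial and Schwann cell markers 3 have a row. The myelin protein MBP was higher at 0.48 (adjusted p = 0.0037), while CNP stood at 0.10 (adjusted p = 0.552, per the authors' deposited table). Of 12 keratinocyte and fibroblast markers 1 has a row, COL1A2, at 0.09. MBP and the myelin gene MAG thus moved in the same direction as VGF and METRN. The part of other cells in these values was not tested.

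Neither gene shares its place in the genome with another in the RefSeq table of GRCh38.p14. It lists 0 genes that overlap VGF or METRN and 0 pseudogenes named after either. VGF's neighbours are AP1S1 and NAT16, of which AP1S1 has a row, with a log2 change of 0.02 (adjusted p = 0.894, per the authors' deposited table). METRN's neighbours FBXL16 and ANTKMT have 0 rows.

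A feature that both genes share is the base composition at the start of the mRNA. The choice of the genes did not use it, but it was itself picked after their sequences were seen. In the 50 bases from the annotated start GC made up 76% in VGF and 86% in METRN, against a median of 66% over 3735 genes. Of these genes 80.3% had a lower value than VGF and 98.4% a lower one than METRN. In the 250 bases before the start METRN was also GC-rich, at 78.4%, while VGF was near the median of 65.2% with 66%. Neither mRNA begins with a C followed by at least 4 pyrimidines, the form of the terminal oligopyrimidine tract of ribosomal protein mRNAs, which 6.75% of the genes had at the annotated start.

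The change of TE varied with this composition over the 3735 genes with an entry. Genes were split into 5 groups by GC at the start, unequal in size because of ties. The group with 76% GC or more holds METRN and, at its lower edge, VGF. In it 92 of 734 genes (12.5%) were higher and 18 (2.45%) lower at an adjusted p below 0.05. In the group with 60% or less, 64 of 986 (6.49%) were higher and 116 (11.8%) lower. The median log2 change was 0.10 in the first of these groups and -0.02 in the second. A similar split was seen for GC in the 250 bases before the start, where the pair does not lie together. In the group with 74% or more there, which holds METRN, 12.8% were higher and 3.18% lower, with a median log2 change of 0.09. In the middle group, which holds VGF, 8.44% were higher and 10.7% lower, with a median of -0.0038. The split by GC at the start was also looked up at both ends of the TE range, with VGF and METRN left out. In the lowest 10% of TE in shSCR cells, where METRN lies, 11 of 81 genes with GC-rich starts (13.6%) were higher and 0 lower. Among the rest there, 28 of 277 (10.1%) were higher and 13 (4.69%) lower. The share that was higher thus differed little at METRN's end, and the difference lay mostly in the genes that were lower. In the highest 10%, where VGF lies, 7 of 53 with GC-rich starts were higher and 0 lower, against 20 of 322 higher and 30 lower among the rest. These counts describe genes of the same libraries, which are not independent replicates, and no test was made. The changes of VGF and METRN are several times the median change of this group.

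**Figure D5:**
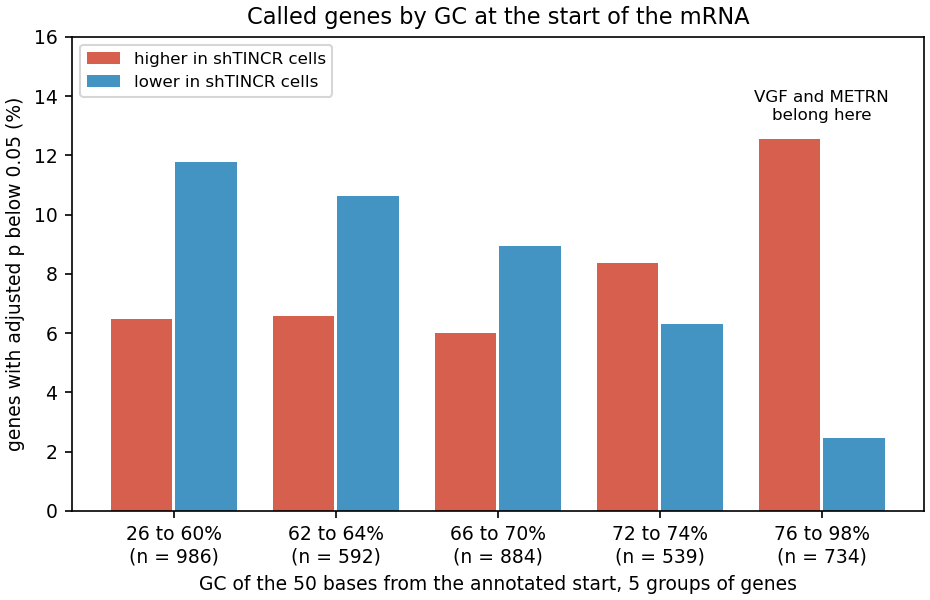
Share of genes (%) with an adjusted p below 0.05 that were higher (red) or lower (blue) in shTINCR cells, by GC of the 50 bases from the annotated start, in 5 groups of genes (range and n under each pair of bars). In the group with the most GC, which holds VGF and METRN, 12.5% were higher and 2.45% lower, and in that with the least 6.49% were higher and 11.8% lower. The shares over all 4616 genes were 8.23% higher and 8.17% lower.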

How the data were processed

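Footprints and RNA were sequenced from WM902B cells, 2 biological replicates per hairpin. Build hg19 and the tools HTSeq 0.5.3p9, TopHat2 2.0.8, DESeq 1.10.1 and Bowtie2 2.1.0 stand in the submitters' processing notes, which give no roles. The tool behind the TE columns remains not given in the sources used here. Per gene, the deposited table gives log2 TE per condition and log2 changes of TE, shTINCR over shSCR, for 4616 genes. Its p-values are, per the file headers, those of 2 versions, the final one and its adjustment, and the final one was the larger of both in all 4616 rows. Values of single libraries are not in its columns, so depth is unknown and no count test could be run.

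A gene counted as higher or lower where the authors' adjusted p, taken over all genes, was below 0.05. Folds, ranks and implied errors were computed in Python 3.11.15 (pandas 2.3.3, numpy 2.4.6, scipy 1.17.1, matplotlib 3.10.9). Of the symbols 4465 were current in RefSeq (GRCh38.p14), 139 older with 1 match and 12 unmatched, and 3735 (80.9%) had a promoter entry. VGF, METRN and the lists were chosen with earlier results of these data known, and the motifs and GC groups after the sequences were seen. Named from each list were up to 6 called genes and the 2 with the smallest p, with the 5 nearest genes and rank neighbours of each member. GRN and VEGFA were named in addition.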

Additional observations from a re-analysis of the deposited data

How the results depend on the processing

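No paired analysis was possible because the table holds no values of single libraries, and for the same reason no replicate could be left out. The changes of VGF and METRN kept their direction and passed the threshold under both versions of the authors' estimate, at an adjusted p below 0.01 and under Bonferroni adjustment. Their direction was also kept after centring on the median and as the difference of the deposited log2 TE, for which no p-value was computed. Their log2 changes ranged from 0.71 to 0.72 for VGF and from 0.96 to 0.98 for METRN. Among genes within 0.5 of the member's log2 TE in shSCR cells VGF ranked 2nd and METRN 1st, against 14th and 6th of all genes, as fewer genes were ranked. At an adjusted p below 0.01, 167 genes were higher and 194 lower, and under Bonferroni 45 were higher and 75 lower, against 380 and 377. In the pathway lists 6 genes were higher, against 3 under Bonferroni adjustment and 8 on the second version. That version had 509 genes higher and 426 lower over all genes.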
